A study of Mus musculus with 15 samples.

Results

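Sema4d and 8 further genes of the semaphorin system were followed through 15 RNA-seq libraries of 6DT1 cells, a metastatic mouse mammary cancer line grown as a monolayer. The set holds the ligand genes Sema4d, Sema4b and Sema4c, the plexin genes Plxnb1, Plxnb2, Plxna1 and Plxnd1, and the neuropilin genes Nrp1 and Nrp2, which are 9 of the 13840 genes listed in the 2 gene tables. Sema4d was chosen by its lower CPM in the Smarcd1 hairpin lines than in their control, and the other genes for their kinship with it. The choice was made with earlier results of these data known. The values of all 9 against that control are therefore given below as a description with no test. The OE line carried a vector with Myc-tagged Smarcd1 and was set against the empty-vector line EV, both under blasticidin, while the KD6 and KD4 lines expressed hairpins that target Smarcd1 and were compared with the scrambled-hairpin line shScr, all under puromycin. Each of the 5 lines had 3 libraries, made from separate passages harvested 24 h after seeding at 70% confluence. The labels do not say which hairpin KD6 and KD4 carry or whether a line is a clone, so a p value here measures the spread between passages of 1 line. Where KD6 and KD4 were taken as 1 group, the spread between these lines enters the p value too.

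Semaphorins are cell-surface or secreted guidance proteins that act on plexins, receptors whose cytoplasmic part switches off small GTPases of the R-Ras and Rap family and, in the B class, also drives RhoA through bound exchange factors. Class 4 semaphorins such as Sema4d span the membrane and can be shed by proteases, and the high-affinity receptor of Sema4d is plexin-B1. Neuropilins have no signalling domain of their own and serve as co-receptors of secreted class 3 semaphorins, with A-class plexins, and of vascular endothelial growth factors. In breast and other carcinomas the system is known for its parts in invasion and in the attraction of blood vessels.

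Sequences of the transcripts behind the main values are shown first. Sema4d, on chromosome 13, was measured as 3 transcripts with 1 and the same coding sequence of 2586 bases, so they differ outside it. The first 60 coding bases, which all 3 share, are given with the start codon in capitals.
Sema4d: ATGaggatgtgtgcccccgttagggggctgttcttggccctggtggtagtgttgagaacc
Nrp2, on chromosome 1, was measured as 6 protein-coding transcripts and 1 noncoding transcript, and the coding ones fall into classes by an in-frame stretch of 15 bases that 3 of them hold and 3 lack. The stretch is shown in capitals between its flanks because it separates the Nrp2 forms counted below.
Nrp2: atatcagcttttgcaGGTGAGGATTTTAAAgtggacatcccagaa
Nrp1 and Plxnd1, whose levels differed in opposite directions between KD6 and KD4, were each listed with 1 transcript, which began at the start site of the gene's RefSeq promoter. Both 300-base promoters are given in the direction of transcription with the GC boxes in capitals (GGGCGG or, on the other strand, CCGCCC), first Nrp1 at chr8:128358823-128359122 on the plus strand and then Plxnd1 at chr6:115994956-115995255 on the minus strand of RefSeq build GRCm38.p6.
Nrp1: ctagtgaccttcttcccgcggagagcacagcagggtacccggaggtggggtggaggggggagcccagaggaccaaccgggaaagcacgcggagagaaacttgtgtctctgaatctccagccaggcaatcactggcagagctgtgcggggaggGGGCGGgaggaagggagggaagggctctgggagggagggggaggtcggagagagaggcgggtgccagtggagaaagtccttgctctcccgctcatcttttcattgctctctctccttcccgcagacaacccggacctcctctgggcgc
Plxnd1: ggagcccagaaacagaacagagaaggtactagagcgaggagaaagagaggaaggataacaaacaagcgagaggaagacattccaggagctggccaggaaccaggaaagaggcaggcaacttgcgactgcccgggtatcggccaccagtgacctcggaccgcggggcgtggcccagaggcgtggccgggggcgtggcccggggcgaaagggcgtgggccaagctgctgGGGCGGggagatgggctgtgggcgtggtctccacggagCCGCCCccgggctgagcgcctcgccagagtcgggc
The Nrp1 promoter held 1 GC box and 14 CpG sites, and the Plxnd1 promoter held 2 GC boxes and 23 CpG sites. A GC box was found in 35.7% of 32851 mouse promoters of that length, whose median CpG count was 7. The TATA box TATAAA, the AP-1 site TGACTCA, the E-box CACGTG and the CCAAT box, which occur in 13.6%, 5.2%, 7.2% and 37.4% of those promoters on either strand, were in neither window. No motif of the 5 lies within another. The 3 RefSeq promoters of Sema4d lay between 4683 and 21920 bases from the nearest start of a listed Sema4d transcript and are not printed.

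Levels are given in CPM, reads assigned to a gene scaled to a common library total, as the authors calculated them. The number of reads per library is unknown, so no counting interval is given, and CPM is not divided by gene length, so levels are compared between lines and never between genes. Gene values of OE and EV stand in 1 table and those of the hairpin lines in another, and the summed transcripts of a gene put all 15 libraries on 1 scale. The listed values of a library summed to between 854736 and 923092. Smarcd1, which encodes a core BAF (SWI/SNF) subunit, stood at 70.4, 64.99 and 61.7 CPM in OE, against 31.9, 27.1 and 29.9 CPM in EV. It stood at 13.2, 14.8 and 15.1 CPM in KD6 and at 9.07, 9.05 and 9.27 CPM in KD4, against 14.5, 16.5 and 15.04 CPM in shScr, so KD6 overlapped its control and KD4 did not. In limma Smarcd1 rose in OE (log2 change 1.12, adjusted p = 0.00355) and fell in KD4 (log2 change -0.69, adjusted p = 8.73e-04), and did not pass in KD6 (log2 change -0.09, adjusted p = 0.701). The OE call was lost without EV replicate 3 (adjusted p = 0.0520), without OE replicate 2 (0.0533) and with summed transcripts (0.769). Of 6 epithelial markers Krt8, Krt18 and Krt19 had values, with a summed level of 660.2 to 781 CPM in OE, 699 to 829 CPM in EV, 732 to 926 CPM in KD6, 763 to 961 CPM in KD4 and 698 to 770 CPM in shScr. Immune cells, for which Sema4d is a known gene, were represented by 1 of 8 markers, Cd68, at 46.8 to 68.7 CPM in OE, 62.0 to 63.5 CPM in EV, 30.3 to 49.7 CPM in KD6, 27.4 to 35.1 CPM in KD4 and 32.3 to 38.7 CPM in shScr, with Ptprc and Cd3e not listed. Endothelial cells, which use Nrp1 and Plxnd1, were represented by Kdr at 0.880 to 1.20 CPM in OE and 1.06 to 1.84 CPM in EV and by 0 of 5 markers in the hairpin lines. Of 4 myoepithelial markers Acta2 alone had values, at 1.02 to 1.64 CPM in OE and 0.854 to 2.19 CPM in EV, and 0 were listed in the hairpin lines. Of 5 fibroblast markers Pdgfra alone had values, at 3.58 to 4.04 CPM in OE and 3.20 to 3.75 CPM in EV. It was at 4.42 to 5.11 CPM in KD6 and 7.12 to 7.75 CPM in KD4, against 2.54 to 3.55 CPM in shScr, and the part of these markers in the results was not tested. In bulk RNA a lower share of expressing cells and less RNA per cell cannot be told apart.

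The ligand Sema4d (ENSMUSG00000021451) was the lowest against its own control in both hairpin lines among the 8 genes measured there, which is the pattern it was chosen for. Its level was 12.7, 18.4 and 19.5 CPM in KD6 and 9.54, 8.60 and 8.57 CPM in KD4, against 30.7, 26.7 and 31.8 CPM in shScr. No library of either hairpin line reached the lowest shScr library, and no KD4 library reached the lowest KD6 library. The mean was 56.7% of shScr in KD6 and 29.9% of shScr in KD4 (log2 changes -0.80 and -1.63). Whether the hairpin lines also differed from each other is a comparison that did not serve to choose the gene. Sema4d was 1.89-fold higher in KD6, with 16.9 ± 3.66 CPM, than in KD4, with 8.90 ± 0.55 CPM (SD, n = 3 each; log2 change 0.83, SE 0.14, 95% confidence interval 0.52 to 1.14, limma adjusted p = 0.00745). The difference passed in all 16 alternatives run, with adjusted p between 0.00143 and 0.0392. Smarcd1 was higher in KD6 than in KD4 too (log2 change 0.60, limma adjusted p = 0.00292).

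With more Smarcd1, Sema4d did not pass. It stood at 48.8, 48.2 and 42.5 CPM in OE, against 45.9, 40.9 and 36.7 CPM in EV, and the lines overlapped. The log2 change was 0.18 (SE 0.09, 95% confidence interval -0.03 to 0.38, limma adjusted p = 0.448). On the scale of summed transcripts Sema4d averaged 44.6 ± 5.18 CPM in OE and 38.5 ± 5.38 CPM in EV, and 13.6 ± 1.96 CPM in KD6, 8.21 ± 0.42 CPM in KD4 and 25.2 ± 1.87 CPM in shScr. In descending order the lines ran OE, EV, shScr, KD6 and KD4, and of the neighbours in that order OE and EV alone overlapped. The blasticidin lines and the puromycin lines differ in vector and drug, and the parts of vector and drug in the distance between EV and shScr cannot be told apart.

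**Figure D1:**
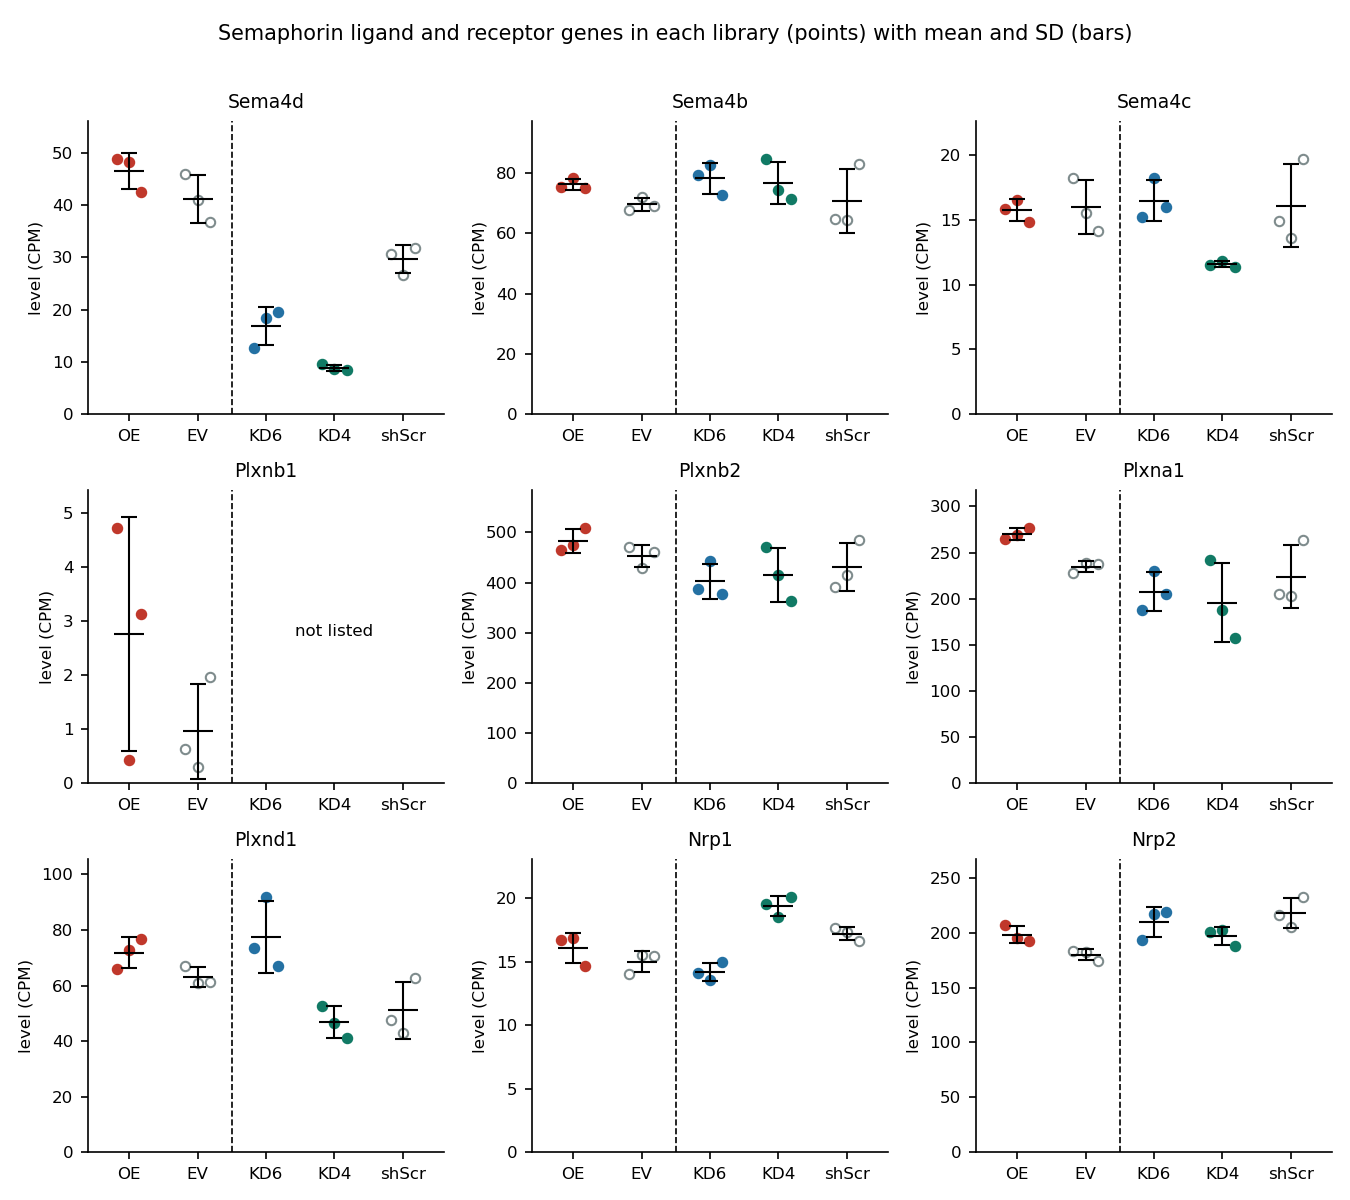
Level of each of the 9 genes in CPM (linear axis from 0) in every library (points) of OE, EV, KD6, KD4 and shScr, with the mean and SD of 3 libraries (bars); the dashed line separates the 2 gene tables. Sema4d lies at 8.57 to 19.5 CPM in KD6 and KD4 and at 26.7 to 31.8 CPM in shScr, Nrp1 in KD6 lies below and in KD4 above all shScr libraries, and Plxnb1 has values in OE and EV alone.

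The related ligands Sema4c and Sema4b had other patterns. Sema4c (ENSMUSG00000026121), a transmembrane ligand of plexin-B2, stood at 15.2, 18.2 and 16.0 CPM in KD6 and 11.5, 11.8 and 11.4 CPM in KD4, against 14.9, 13.6 and 19.7 CPM in shScr. Every KD4 library was below every library of KD6 and of shScr, while KD6 overlapped shScr. Between the hairpin lines the log2 change was 0.47 (SE 0.12, 95% confidence interval 0.20 to 0.75) and just missed the threshold, with limma adjusted p = 0.0570. It passed with quantile normalization (adjusted p = 0.0458), with summed transcripts (adjusted p = 0.00876) and without shScr replicate 3 (adjusted p = 0.0198), over a range of 0.00876 to 0.211 in 16 alternatives. In OE it averaged 15.7 ± 0.84 CPM, against 16.0 ± 2.07 CPM in EV (log2 change -0.01, limma adjusted p = 0.964). With summed transcripts that log2 change was 0.0045, so its sign is not settled.

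Sema4b (ENSMUSG00000030539), a further transmembrane ligand of class 4, varied little. It averaged 78.3 ± 5.10 CPM in KD6 and 76.8 ± 7.02 CPM in KD4, against 70.7 ± 10.7 CPM in shScr, and all 3 lines overlapped. KD6 against KD4 gave a log2 change of 0.03 (95% confidence interval -0.21 to 0.26, limma adjusted p = 0.945). Sema4b stood at 75.4, 78.4 and 74.9 CPM in OE, against 67.9, 71.9 and 69.2 CPM in EV, with no overlap. That difference was small (log2 change 0.13, SE 0.05) and did not pass (limma adjusted p = 0.322).

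Among the plexins, Plxnd1 (ENSMUSG00000030123) differed most between the hairpin lines. It encodes plexin-D1, the endothelial receptor of Sema3e. Its level was 73.4, 92.0 and 67.1 CPM in KD6 and 52.7, 46.6 and 41.2 CPM in KD4, against 47.8, 43.0 and 62.7 CPM in shScr. KD6 was above every library of KD4 and of shScr, and KD4 overlapped shScr, so the mean was 151% of shScr in KD6 and 91.6% in KD4. KD6 exceeded KD4 by a log2 change of 0.71 (SE 0.15, 95% confidence interval 0.37 to 1.04, limma adjusted p = 0.0231). Of the fits that left out 1 library, the call was lost without KD4 replicate 2 (adjusted p = 0.0771), KD4 replicate 3 (0.0657), KD6 replicate 1 (0.0510) or KD6 replicate 2 (0.0940), within a range of 0.00565 to 0.0940 over 16 alternatives, and the log2 change was between 0.58 and 0.80 in all of them. Plxnd1 stood at 65.9, 73.0 and 76.8 CPM in OE, against 67.2, 60.8 and 61.5 CPM in EV, and did not pass (log2 change 0.18, limma adjusted p = 0.332).

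Plexin-B1, the receptor of Sema4d, had gene values in OE and EV alone. Plxnb1 (ENSMUSG00000053646) stood at 4.72, 0.434 and 3.13 CPM in OE, against 0.635, 0.303 and 1.96 CPM in EV, and was not listed for the hairpin lines or among the transcripts. The lines overlapped and the interval was wide (log2 change 0.81, 95% confidence interval -0.33 to 1.95, limma adjusted p = 0.532). Plxnb2 (ENSMUSG00000036606) encodes plexin-B2, a receptor of Sema4c and also of Sema4d. It stood at 387, 442 and 377 CPM in KD6 and 470.3, 414 and 362 CPM in KD4, against 392, 416 and 485 CPM in shScr, with overlap of all 3 lines. In OE it averaged 483 ± 23.3 CPM, against 453 ± 21.4 CPM in EV. Neither KD6 against KD4 (log2 change -0.04, 95% confidence interval -0.29 to 0.20, limma adjusted p = 0.913) nor OE against EV (log2 change 0.09, 95% confidence interval -0.03 to 0.22, limma adjusted p = 0.519) passed.

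Plxna1 (ENSMUSG00000030084) encodes plexin-A1, a signalling partner of neuropilins. It had the smallest p of the 9 genes in OE against EV, with 264, 269 and 277 CPM in OE, against 228, 239 and 238 CPM in EV. Every OE library was above every EV library, and the log2 change was 0.20 (SE 0.04, 95% confidence interval 0.10 to 0.30), yet it did not pass over all genes (unadjusted p = 0.00139, limma adjusted p = 0.195). In the hairpin lines it was scattered, with 207 ± 21.2 CPM in KD6 and 196 ± 42.9 CPM in KD4, against 224 ± 34.5 CPM in shScr. KD6 against KD4 gave a log2 change of 0.10 (95% confidence interval -0.24 to 0.43, limma adjusted p = 0.829).

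The neuropilin Nrp1 (ENSMUSG00000025810), the co-receptor of Sema3a and of Vegfa, stood on opposite sides of the control in the hairpin lines. Its level was 14.1, 13.5 and 14.98 CPM in KD6 and 19.5, 18.5 and 20.1 CPM in KD4, against 17.7, 17.3 and 16.6 CPM in shScr. All KD6 libraries were below and all KD4 libraries above every shScr library, so the 6 hairpin libraries taken as 1 group averaged 97.6% of shScr while the mean was 82.6% in KD6 and 113% in KD4. KD6 was lower than KD4 by the test (log2 change -0.42, SE 0.08, 95% confidence interval -0.59 to -0.26, limma adjusted p = 0.00982). The call held in 15 of 16 alternatives, the exception being without KD6 replicate 2 (adjusted p = 0.0565, range 0.00376 to 0.0565). Nrp1 stood at 16.7, 16.9 and 14.7 CPM in OE, against 14.03, 15.5 and 15.5 CPM in EV, and these overlapped (log2 change 0.09, limma adjusted p = 0.654).

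Nrp2 (ENSMUSG00000025969), the co-receptor of Sema3f and of Vegfc, differed little. It stood at 207, 195 and 192 CPM in OE, against 183, 182 and 174 CPM in EV, with no overlap and a log2 change of 0.14 (SE 0.05) that did not pass (limma adjusted p = 0.306). It stood at 193, 216 and 218 CPM in KD6 and 201, 202 and 187 CPM in KD4, against 216, 205 and 232 CPM in shScr. KD4 was below all shScr libraries and KD6 overlapped both. KD6 against KD4 gave a log2 change of 0.09 (95% confidence interval -0.07 to 0.25, limma adjusted p = 0.6253).

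Counted over the set, 3 of 8 measured genes passed in KD6 against KD4 (Sema4d and Plxnd1 higher, Nrp1 lower), against 4.91% of all 13669 genes, and 4 of 8 had an unadjusted p under 0.05, against 17.4% of all genes. The libraries of KD6 and KD4 did not overlap in 4 of 8, against 21.6% of all genes. In OE against EV 0 of 9 passed in limma, against 0.00741% of all 13501 genes, which is the single gene Smarcd1, and 4 of 9 were higher at an unadjusted p under 0.05 (Plxna1, Nrp2, Sema4b and Plxnd1), against 7.68% of all genes, and none of the 9 was lower at that p, against 5.27%. There 8 of 9 were higher, with a median log2 change of 0.14 beside 0.01 over all genes, and 3 of 9 did not overlap, against 20.0% of all genes. Against shScr the libraries did not overlap in 3 of 8 for KD6, where 22.2% of all genes did not, and in 4 of 8 for KD4, where 29.5% of all genes did not. These counts against shScr involve the contrast that chose Sema4d, and nothing is read from them. The genes were chosen with earlier results of these data known, and Sema4d for its level in the hairpin lines. Nothing is therefore read from the other counts either.

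**Figure D2:**
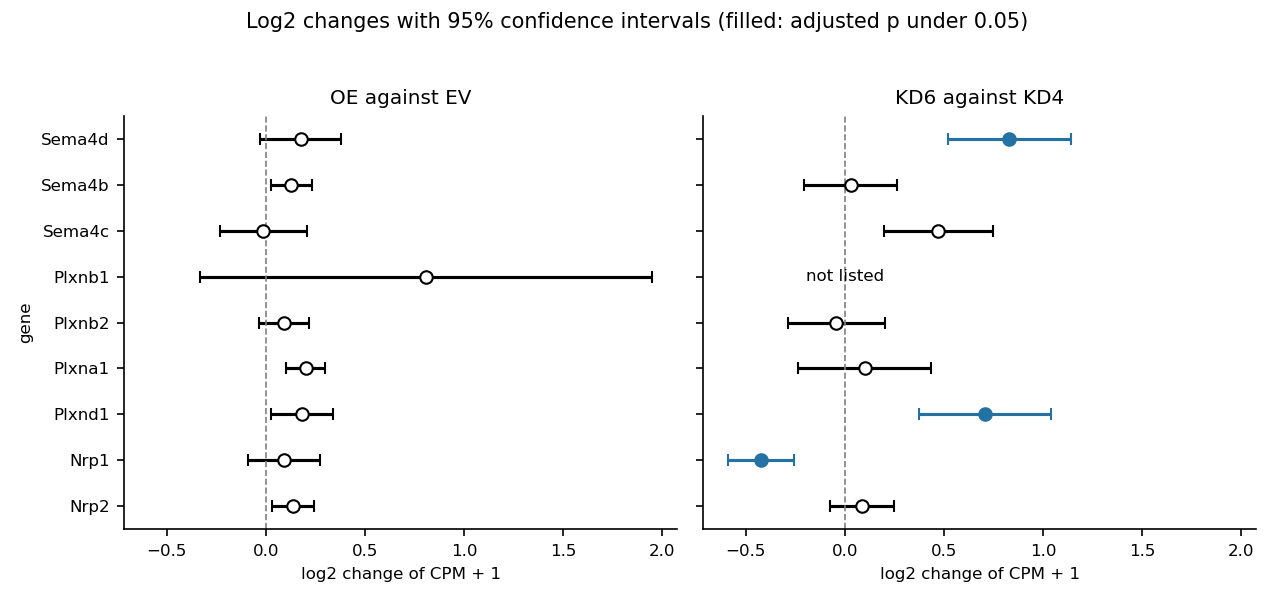
Log2 change of CPM + 1 (points) with its 95% confidence interval (bars) for the 9 genes in OE against EV (left) and KD6 against KD4 (right); filled points passed at an adjusted p under 0.05. Sema4d at 0.83, Plxnd1 at 0.71 and Nrp1 at -0.42 passed in KD6 against KD4, and no point of OE against EV passed.

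The transcript values show whether single forms carried the differences. In all, 25 transcripts of 8 genes were listed. In KD6 against KD4 the sole listed transcripts of Nrp1 (ENSMUST00000026917, log2 change -0.44, limma adjusted p = 0.0176) and Plxnd1 (ENSMUST00000015511, log2 change 0.71, limma adjusted p = 0.0222) passed. These were 2 of 25, against 1.68% of all 30220 transcripts, and 6 of 25 had an unadjusted p under 0.05, against 12.5% of all. Each call was lost in 4 of 15 fits that each left out 1 library, with adjusted p up to 0.0868 for Nrp1 and 0.104 for Plxnd1. For Nrp1 these were without KD4 replicate 1 (0.0576), KD4 replicate 3 (0.0640), KD6 replicate 1 (0.0521) or KD6 replicate 2 (0.0868), and for Plxnd1 without KD4 replicate 2 (0.0724), KD4 replicate 3 (0.0822), KD6 replicate 1 (0.0507) or KD6 replicate 2 (0.104). In OE against EV 0 of 25 passed in limma and 0 had an unadjusted p under 0.05, against 0% and 6.61% of all transcripts.

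The 3 Sema4d transcripts each had a lower mean in both hairpin lines than in shScr and, outside KD4, spread widely between libraries. ENSMUST00000021900 stood at 7.93, 3.23 and 10.6 CPM in KD6 and 6.13, 5.79 and 5.39 CPM in KD4, against 9.26, 19.7 and 10.2 CPM in shScr. ENSMUST00000110039 stood at 1.06, 2.71 and 3.08 CPM in KD6 and 1.38, 1.05 and 1.22 CPM in KD4, against 4.38, 2.96 and 3.53 CPM in shScr. ENSMUST00000110040 stood at 3.19, 6.88 and 2.14 CPM in KD6 and 1.17, 1.23 and 1.28 CPM in KD4, against 9.62, 4.30 and 11.6 CPM in shScr. In KD4 all 3 were below every shScr library, and in KD6 libraries of ENSMUST00000021900, ENSMUST00000110039 and ENSMUST00000110040 overlapped shScr. The last form made up 31.1 ± 20.5% of the Sema4d sum in KD6, 14.98 ± 1.37% in KD4 and 34.3 ± 16.1% in shScr, and 23.8 ± 7.25% in OE and 24.7 ± 8.76% in EV (SD, n = 3). Its log2 change of 1.08 in KD6 against KD4 was the largest of the 25 and did not pass (limma adjusted p = 0.167). The Sema4d sum was between 80.8% and 95.9% of the gene value across the lines.

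**Figure D3:**
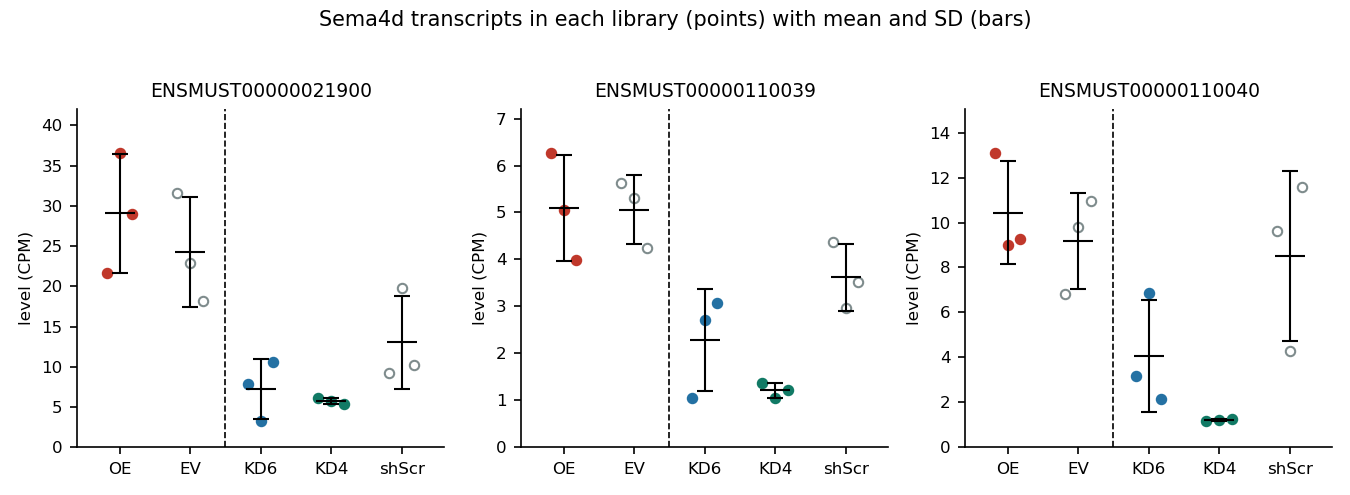
Level of the 3 listed Sema4d transcripts in CPM (linear axes from 0, 1 scale per panel) in every library (points) of OE, EV, KD6, KD4 and shScr, with the mean and SD of 3 libraries (bars); the dashed line separates the blasticidin lines from the puromycin lines. The KD4 libraries lie between 1.05 and 6.13 CPM with little spread, while those of OE, EV, KD6 and shScr spread more widely.

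Transcript share, the part of a gene's sum that each form takes, was tested by diffSplice in limma. It passed in 0 of 6 genes with several transcripts in both comparisons, where 0.777% of 7077 genes passed in OE against EV and 0.975% in KD6 against KD4. An unadjusted p under 0.05 was reached by 0 of 6 in OE against EV, against 12.8% of the tested genes, and by 1 of 6 in KD6 against KD4, against 11.1%. That gene was Sema4c (adjusted p = 0.229). Its form with the smallest p for share was ENSMUST00000191642, whose share was lower in KD6 (diffSplice log2 change -1.09, unadjusted p = 0.00298, adjusted p = 0.228). That form made up 9.78 ± 3.09% of the Sema4c sum in KD6 and 25.2 ± 10.1% in KD4, against 14.9 ± 6.56% in shScr. The share of ENSMUST00000195620 went the other way (diffSplice log2 change 0.67, unadjusted p = 0.0587). ENSMUST00000195620 averaged 7.88 CPM in KD6 and 3.92 CPM in KD4, against 6.94 CPM in shScr (KD6 against KD4: log2 change 0.87, limma adjusted p = 0.0641). The Nrp2 forms with the 15-base stretch shown above made up 28.4 ± 1.52% of the 6 coding forms in OE, against 30.2 ± 0.74% in EV. They made up 31.6 ± 2.01% in KD6 and 30.9 ± 1.02% in KD4, against 33.0 ± 1.75% in shScr. The 6 forms also end in 1 of 2 ways, and the ending of 4 of them made up 76.2 ± 0.17% in OE, against 79.2 ± 0.47% in EV, without overlap. It made up 79.4 ± 3.81% in KD6 and 79.0 ± 3.86% in KD4, against 75.4 ± 1.71% in shScr. The share test of Nrp2 as a whole gave adjusted p = 0.810 in OE against EV and 0.919 in KD6 against KD4.

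Other genes of the pathway were counted from a list of 90, of which 64 were measured in the hairpin lines and 63 in OE and EV. The list was drawn up with earlier results of these data known. In KD6 against KD4 2 of 64 were higher and 7 of 64 lower by the test, against 2.52% and 2.39% of all genes, with a median log2 change of -0.03 beside 0.00 over all genes. They included 4 of the 8 other semaphorins measured. Sema3b, a secreted ligand that acts through neuropilins, stood at 1.39, 1.47 and 1.49 CPM in KD6 and 3.55, 4.58 and 3.69 CPM in KD4, against 1.39, 1.76 and 1.67 CPM in shScr (KD6 against KD4: log2 change -1.01, limma adjusted p = 8.74e-04). Sema3c, also secreted, stood at 2.49, 1.72 and 2.15 CPM in KD6 and 5.20, 4.09 and 6.81 CPM in KD4, against 4.13, 2.90 and 2.74 CPM in shScr (log2 change -1.01, limma adjusted p = 0.00868). Both were higher in every KD4 library than in any KD6 library.

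The transmembrane ligands of class 6 went 2 ways. Sema6d, a ligand of plexin-A1, stood at 12.1, 13.8 and 15.2 CPM in KD6 and 5.45, 4.91 and 7.09 CPM in KD4, against 10.6, 10.2 and 11.2 CPM in shScr (KD6 against KD4: log2 change 1.12, limma adjusted p = 8.74e-04). Sema6a was lower in KD6, with 0.925, 2.03 and 1.66 CPM, than in KD4, with 4.28, 6.20 and 2.79 CPM, against 1.84, 1.51 and 2.02 CPM in shScr (KD6 against KD4: log2 change -1.07, limma adjusted p = 0.0221). Of the growth factors that bind neuropilins, Vegfc, the lymphatic ligand of Nrp2, stood at 0.737, 0.771 and 0.669 CPM in KD6 and 2.85, 2.30 and 2.23 CPM in KD4, against 1.11, 0.943 and 1.09 CPM in shScr (log2 change -0.999, limma adjusted p = 8.50e-04). Sema3b, Sema3c, Sema6d and Vegfc kept their calls in every fit that left out a library and in every alternative that gave a value. Beyond the leave-one-out fits, those alternatives numbered 5 for Sema3b, 6 each for Sema3c and Vegfc and 7 for Sema6d. Sema3b, Sema3c, Sema6a and Vegfc are low genes that the alternative with a mean of at least 5 CPM removed, as it removed Mical1. Sema3c and Vegfc were not listed in OE and EV. The plexin partner Met (log2 change -0.32, limma adjusted p = 0.0429), the Sema4d-shedding protease Mmp14 (-0.30, limma adjusted p = 0.0253), the cofilin kinase Limk1 (-0.52, limma adjusted p = 0.0446) and the actin oxidase Mical1 (0.47, limma adjusted p = 0.0261) passed too. Met and Limk1 lost theirs in 7 of 9 leave-one-out fits (adjusted p up to 0.1685 for each, without KD6 replicate 2) and Mmp14 in 5 of 9 (up to 0.0940, without KD6 replicate 2). Mical1 stood at 5.41, 5.05 and 5.48 CPM in KD6 and 3.82, 3.88 and 3.06 CPM in KD4. Mical1 lost its call without KD4 replicate 3 or any of the KD6 replicates (up to 0.0859) and with summed transcripts (0.753), and Sema6a without KD4 replicates 1 or 2 or KD6 replicates 1 or 3 (up to 0.0736). With all libraries kept, Met and Limk1 also missed the threshold with no intensity trend (limma adjusted p = 0.0709 and 0.0600) and with median-of-ratios scaling (0.0584 and 0.0509), and Limk1 with summed transcripts (0.0933).

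**Figure D4:**
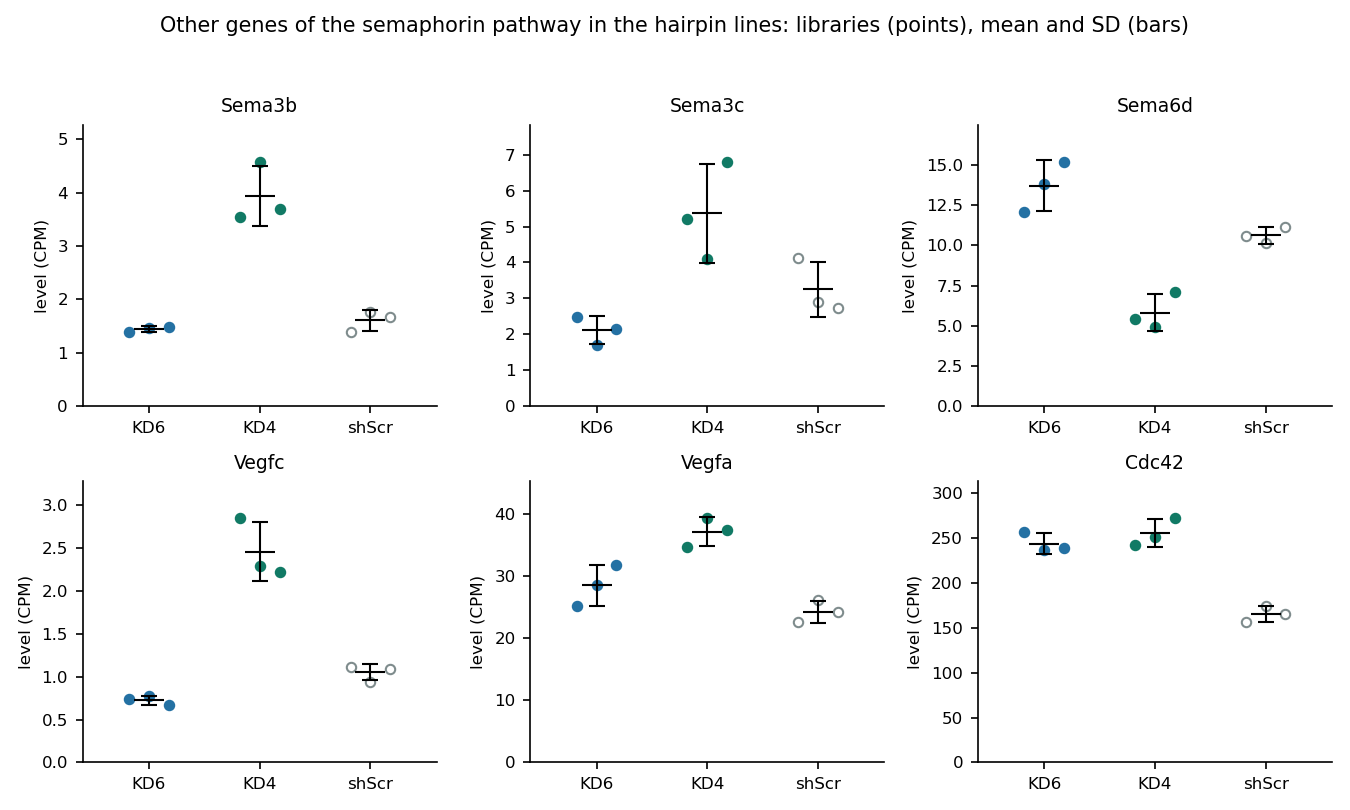
Level in CPM (linear axes from 0) of 6 further genes of the semaphorin pathway in every library (points) of KD6, KD4 and shScr, with the mean and SD of 3 libraries (bars). Sema3b, Sema3c and Vegfc are highest and Sema6d is lowest in KD4, with no overlap with KD6, and Cdc42 is above shScr in both hairpin lines.

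Against shScr 3 of 64 rose and 0 fell in KD6 and KD4 taken as 1 group, where 1.95% of all genes rose and 0.710% fell, and 15 of 64 had an unadjusted p under 0.05 in either direction in limma, against 17.3% of all genes. The p values of this group mix the spread between passages with that between the KD6 and KD4 lines, whose libraries are not independent replicates of 1 condition. The GTPase Cdc42, a regulator of filopodia, stood at 257, 236 and 238 CPM in KD6 and 242, 251 and 272 CPM in KD4, against 157, 174 and 165 CPM in shScr. It rose by a log2 change of 0.59 (SE 0.06, limma adjusted p = 0.00110) and kept the call in each of 16 alternatives. Rhoc (log2 change 0.69, limma adjusted p = 0.0262) and the Cdc42-bound kinase Pak4 (log2 change 0.40, limma adjusted p = 0.0499) rose as well. The other control line, EV, whose values come from the other gene table, was not low for these genes. It stood at 226, 226 and 231 CPM for Cdc42 and at 72.2, 69.0 and 71.1 CPM for Rhoc, against 36.1, 42.1 and 47.0 CPM in shScr. For Pak4 it stood at 32.0, 28.2 and 28.7 CPM, against 19.4, 23.2 and 26.3 CPM in shScr. The part of the shScr line in these rises was not tested. Rhoc lost the call without KD4 replicate 2 or any of the shScr replicates (adjusted p up to 0.145, without shScr replicate 1), and Pak4 lost it in 8 of 9 leave-one-out fits (up to 0.225, without shScr replicate 1). With summed transcripts the adjusted p was 0.0556 for Rhoc and 0.05003 for Pak4, and Pak4 also missed with a mean of at least 5 CPM (0.0501) and with no intensity trend (0.0608). In KD6 alone Cdc42 (log2 change 0.56), Plxna4, a neuropilin partner (0.97), and the VEGF receptor Flt1 (0.28) made 3 of 64 risen and 0 fallen in limma, where 2.04% of all genes rose and 0.871% fell, and 20 of 64 had an unadjusted p under 0.05, against 15.3% of all genes. Plxna4 was low, at 7.63, 6.89 and 5.89 CPM in KD6, against 3.40, 2.55 and 3.00 CPM in shScr. The call of Plxna4 was lost in 5 of 9 leave-one-out fits (adjusted p up to 0.120, without shScr replicate 2) and that of Flt1 in 7 of 9 (up to 0.179, without KD6 replicate 2), with quantile normalization (0.0512) and with no intensity trend (0.0728).

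In KD4 alone 14 of 64 rose and 1 fell, where 5.71% of all genes rose and 3.87% fell. The risen genes included both measured neuropilin ligands of the VEGF family other than Vegfb, with log2 changes of 0.59 for Vegfa (limma adjusted p = 0.00383) and 0.75 for Vegfc (limma adjusted p = 0.00226). Among the semaphorins Sema3b (0.92) and Sema6a (0.92) rose and Sema6d (-0.78) fell, and the receptor Plxna2 rose (0.45). The shedding protease Mmp14 rose by 0.46, with 62.9, 63.6 and 64.3 CPM in KD4, against 44.2, 48.3 and 45.7 CPM in shScr. In EV Mmp14 stood at 60.4, 63.1 and 65.9 CPM. Compared across the gene tables, and not on the scale of summed transcripts, EV was thus nearer KD4 than shScr for Mmp14, as it was for Vegfa, Cdc42, Rhoc and Pak4. It was nearer shScr for Sema3b, Sema6a, Sema6d, Plxna2, Limk1, Cfl2 and Pak1, and lay between for Fyn and Mras. Vegfc had no values in EV. The part of the shScr line in these changes was not tested. The Src-family kinase Fyn rose by 0.45, and Cdc42, Rhoc and Mras rose among the GTPases (0.62, 0.78 and 0.31). Limk1, Cfl2, Pak4 and Pak1, which govern actin turnover, rose by 0.60, 0.42, 0.46 and 0.24. Cdc42, Rhoc, Fyn, Mmp14, Sema3b, Sema6d, Vegfa and Vegfc kept their KD4 calls in every fit that left out a library, and 7 genes lost theirs in 2 to 9 of 9. Cfl2 lost it without KD4 replicate 2 or shScr replicate 3 (adjusted p up to 0.0625), Limk1 without shScr replicates 1 or 2 (up to 0.0690), Pak4 without KD4 replicate 2 or shScr replicates 1 or 2 (up to 0.0694) and Plxna2 without KD4 replicates 1 or 2 or shScr replicate 2 (up to 0.0821). Sema6a lost it in 5 of 9 (up to 0.107), Mras in 6 (up to 0.124) and Pak1 in 9 (up to 0.166), each with its highest p without shScr replicate 2. Pak1 also missed with quantile normalization (0.0748), no intensity trend (0.0722) and median-of-ratios scaling (0.0643). In OE against EV 0 of 63 passed in limma, against 0.00741% of all genes. At an unadjusted p under 0.05, 5 of 63 were higher and 2 lower, against 7.68% and 5.27% of all genes, with a median log2 change of 0.05 beside 0.01 over all genes.

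Genes whose pattern was most like that of Sema4d were looked for over the 15 libraries on the log2 scale of summed transcripts, among 9079 further genes. The likeness is a description, since the libraries of a line share their origin and Sema4d and these genes share the libraries. Sema4d was chosen by its lower level in the Smarcd1 hairpin lines, which are among these libraries. Its likeness to Smarcd1 was therefore partly set by that choice, and nothing is read from it. The distance between EV and shScr enters each r as well. The highest Pearson r was that of Smarcd1 itself (0.95), followed by Car12 (0.95), a carbonic anhydrase, Ppm1d (0.93), a phosphatase of the p53 pathway, Atg9b (0.93), an autophagy membrane protein, and Gemin5 (0.93), an RNA-binding protein of the SMN complex. Smarcd1 averaged 37.3 ± 0.96 CPM in OE and 29.4 ± 2.74 CPM in EV, and 13.2 ± 1.05 CPM in KD6, 8.10 ± 0.79 CPM in KD4 and 15.3 ± 1.55 CPM in shScr on this scale, the same order of lines as Sema4d. In OE the listed transcripts of Smarcd1 thus summed to less than its gene value of 65.7 CPM, and the reason was not tested. The most opposite genes were Scrn1 (-0.98), Tuba1a (-0.96), Abcc5 (-0.96), Mfhas1 (-0.95) and Abca5 (-0.95). By Spearman's rho, 1 of the 5 most alike genes, Smarcd1, was again among the 5 most alike. Among the set itself the highest r was that of Plxna1 with Plxnb2 (0.93) and the lowest that of Plxnd1 with Nrp1 (-0.82), and Sema4d had r of 0.71 with Plxna1, 0.68 with Sema4c and -0.06 with Nrp2, each over 15 libraries.

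**Figure D5:**
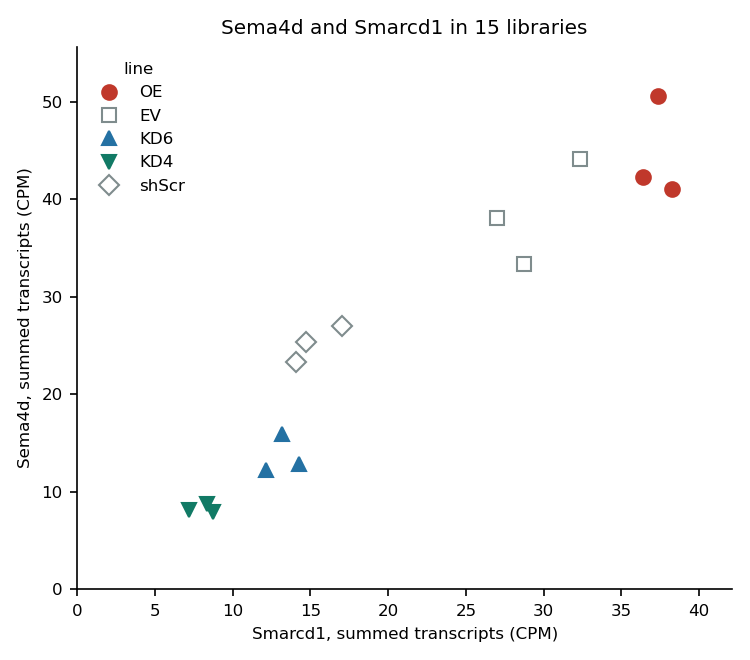
Sema4d against Smarcd1, both as summed transcripts in CPM (linear axes from 0), in the 15 libraries (1 symbol per line: OE, EV, KD6, KD4 and shScr). KD4 lies lowest for both, OE lies highest for Smarcd1 at 36.4 to 38.3 CPM, and for Sema4d OE at 41.0 to 50.5 CPM overlaps EV at 33.3 to 44.1 CPM.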

How the data were processed

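RNA-seq was performed on 15 libraries (HiSeq2500) of 5 lines of 6DT1 cells, with an RNA integrity number above 7. The labels name STAR 2.7.8a and mm39, whereas the methods of the study name other tools and an older build, and it is not known which of them gave the deposited values. The authors deposited CPM, in which reads had been assigned in fractions, as 2 gene tables (13501 and 13669 genes) and 1 transcript table (30220 transcripts), so depth per library is unknown and counts could not be recovered. A further 15 columns match no sample label and were not used. Symbols were looked up in a gene name table, which held 87.3% to 88.1% of the identifiers, and a symbol with no row is named as not listed.

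The genes and the pathway list were chosen with earlier results of these data known. Values were transformed to log2(CPM + 1), and log2 changes are on that scale, which understates the change of low genes. Fold differences and percentages of a control are ratios of mean CPM. The transformed values were tested with limma 3.58.1 (intensity trend, Benjamini-Hochberg over all genes or transcripts, pass at adjusted p under 0.05) in R 4.3.3. OE and EV, KD as 1 group with shScr, and KD6, KD4 and shScr as 3 groups were fitted separately, and transcripts with all 15 libraries as 5 groups. The 9 genes were tested in OE against EV and KD6 against KD4 alone. Named pathway genes were those that passed, at most 4 per group. The pattern search took genes with a mean of at least 4 CPM and named 5 at each end. Coding sequences came from GENCODE on NCBIM37 and promoters from RefSeq on GRCm38.p6, the latter for 8 of 9 genes. Tests were checked on simulated data, where the test of transcript share made more false calls than its threshold allows. Alternatives were a pseudocount of 0.1, quantile normalization, a mean of at least 5 CPM, no intensity trend, a replicate block, summed transcripts and leaving out each library. Median-of-ratios scaling and all alternatives for pathway genes were added after seeing the data. Plots used matplotlib 3.10.9 (Python 3.11.15).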

Additional observations from a re-analysis of the deposited data

Results flagged for a closer look

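The 2 hairpin lines differed by the limma test of KD6 against KD4 in 12 genes described above, given here as the log2 difference of their changes against shScr. Among the ligand and receptor genes these were Sema4d (0.83), Plxnd1 (0.7084) and Nrp1 (-0.4217). Among the other pathway genes the difference was 1.117 for Sema6d, -1.0704 for Sema6a, -1.014 for Sema3c, -1.0068 for Sema3b and -0.9988 for Vegfc. It was -0.5198 for Limk1, 0.465 for Mical1, -0.3151 for Met and -0.2958 for Mmp14. The calls of Plxnd1, Sema6a, Mical1, Mmp14, Met and Limk1 were lost in 4 to 7 of 9 leave-one-out fits. A difference between these lines cannot be assigned to their hairpins. Nrp1 stood on opposite sides of shScr in KD6 and KD4 with no overlap of libraries, and its mean in KD6 was 0.7336 of its mean in KD4. Nrp2 was higher in every OE library than in any EV library and lower in every KD4 library than in any shScr library, at a mean ratio of 0.9033 for KD4 to shScr, and the difference between these effects was not tested.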

How the results depend on the processing

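Of the values recomputed under the alternatives, 127 lost a call, 5 gained one, 16 reversed and 3 moved by more than the replicate SD with no test. The other 1469 kept their side of the threshold and, where a log2 change was tested, its direction. Those with no test moved by less than the replicate SD, and some of them changed sign. Replicate numbers did not pair the samples. The deviations of same-numbered libraries had r of -0.328 to 0.061 over 9 pairs of hairpin libraries and -0.149 to 0.258 over 3 pairs of OE and EV libraries. With the replicate block, genes that passed numbered 114 in KD against shScr, 626 in KD4 against shScr, 179 in KD6 against shScr and 349 in KD6 against KD4, where 671 passed without it. Under the block 149 transcripts passed in KD6 against KD4 (507 without it), and transcript share passed in 10 genes in OE against EV (55 without it) and 11 in KD6 against KD4 (69 without it). The block removed the calls of Plxnd1 (adjusted p = 0.0707) and of the Nrp1 and Plxnd1 transcripts (0.0982 and 0.0859) in limma, and kept those of Sema4d and Nrp1 and 18 of 30 pathway calls (lost: Met, Mmp14 and Mical1 in KD6 against KD4, Rhoc and Pak4 in KD, Flt1 in KD6, and Cfl2, Mras, Pak1, Pak4, Plxna2 and Sema6a in KD4 against shScr). Summed transcripts gave 0 genes in OE against EV, where Smarcd1 had a log2 change of 0.34 (limma adjusted p = 0.769), and 217 in KD against shScr, and kept 22 of 30 pathway calls. Quantile normalization gave 3 genes in OE against EV. Transcript share passed in 91 genes with a pseudocount of 0.1 in OE against EV, and with a mean of at least 5 CPM in 0 in OE against EV and 17 in KD6 against KD4. The causes were not tested. Without 1 library at a time, genes that passed numbered 0 to 1 in OE against EV, 92 to 397 in KD, 641 to 1309 in KD4 and 151 to 419 in KD6 against shScr, and 298 to 611 in KD6 against KD4. Transcripts numbered 0 to 0 in OE against EV and 202 to 484 in KD6 against KD4, and genes by transcript share 13 to 113 and 20 to 88. The tested log2 changes that changed sign, none of them called, were Sema4c in OE against EV (0.0045 with summed transcripts, -0.0927 to 0.0790 without 1 library), the Sema4d transcripts ENSMUST00000110039 (-0.0018 with a pseudocount of 0.1, -0.0469 with quantile normalization, -0.1336 to 0.1356) and ENSMUST00000110040 (-0.0096 to 0.2976) in OE against EV, and, in KD6 against KD4, Sema4b (-0.0221 to 0.1006), Plxnb2 (-0.1373 to 0.0504), Plxna1 (-0.0445 to 0.2637), Sema4d ENSMUST00000021900 (-0.1374 to 0.5926) and Sema4c ENSMUST00000114991 (-0.1422 to 0.5342). Without 1 library, log2 changes against shScr that had no test changed sign too. In KD these were Nrp1 (-0.102 to 0.0053) and Plxnb2 (-0.1411 to 0.0127). In KD4 they were Plxnb2 (-0.1471 to 0.0405) and Plxnd1 (-0.227 to 0.0391), and in KD6 Plxna1 (-0.1809 to 0.0177) and Sema4c (-0.0587 to 0.1926). Median-of-ratios scaling, added after seeing the data, changed no call of the 9 genes and removed the calls of Met and Limk1 in KD6 against KD4 and of Pak1 in KD4 against shScr.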
